A study of Arabidopsis thaliana with 6 samples.

Results

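Nuclear genes whose proteins work in the chloroplast were followed across distal leaves of Arabidopsis thaliana: the Rubisco activase gene RCA (AT2G39730), the antenna genes LHCB4.1 (AT5G01530) and LHCB4.2 (AT3G08940), the photosystem I gene PSAN (AT5G64040), the photosystem II gene PSBW (AT2G30570) and the chlorophyll synthesis gene PORB (AT4G27440). They were taken by symbol from the annotation of the array. All 6 of the 6 genes were represented, each by 1 probe set, among 8854 genes named by a probe set of their own. The probe set identifiers of all 6 carry the plain ending given to probes designed against 1 transcript.

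The series compared leaves distal to a primary leaf infiltrated with G3P (glycerol-3-phosphate, a phosphorylated intermediate of lipid and sugar metabolism) in leaf exudate containing MgCl2 with leaves of mock plants that received the exudate and MgCl2 alone. Both groups therefore received exudate. The plants were of the Columbia ecotype, 3 to 4 weeks old, grown at 22 degrees C with 65% relative humidity and a 14 h photoperiod, and distal leaves were taken 24 h after infiltration. Each group held 3 biological replicates from separate sets of plants, with 1 Affymetrix ATH1 array each. Values are log2(signal + 16), and differences are G3P minus mock.

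In the chloroplast, antenna proteins pass light energy to the reaction centres of photosystems II and I, which drive electrons toward NADPH and pump protons for ATP synthesis. The Calvin cycle spends both on fixing carbon dioxide through Rubisco. Most subunits are encoded in the nucleus, made in the cytosol and imported, and their genes are among the strongly expressed genes of a green leaf. Chlorophyll is made in the plastid from glutamate through the tetrapyrrole pathway, and the antenna proteins need it to fold.

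One array stood apart, and differences between the groups are given with and without it. G3P replicate 3 correlated with the other 5 arrays at 0.842 to 0.913 across all 16129 probe sets, against 0.930 to 0.961 among the others; probe sets are not independent replicates. It was the lowest of the 6 arrays for 28% of all probe sets. Array medians of the signal ran from 291 to 338. No processing batch is given in the sources used here.

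The 6 genes had bright signals in every sample, from 10.10 to 14.97, and all 6 had a lower mean in G3P leaves, with differences from -1.18 for PORB to -0.33 for PSBW and a median of -0.60 (-0.03 over all probe sets). Of the 6, 0 passed at an adjusted p of 0.05 (0.912 for each gene, limma over 16129 probe sets with Benjamini-Hochberg adjustment), in a comparison in which 0% of all probe sets passed. The groups overlapped for all 6 genes, and 4.37% of all probe sets did not overlap and were lower in G3P leaves. For 5 of the 6 genes G3P replicate 3 gave the lowest value of all arrays, the exception being RCA. Without that array 5 differences were still negative, their median over the 6 genes was -0.10, and that of PSBW was 0.03. An array of a whole leaf cannot tell fewer cells of a type from less RNA per cell.

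**Figure D1:**
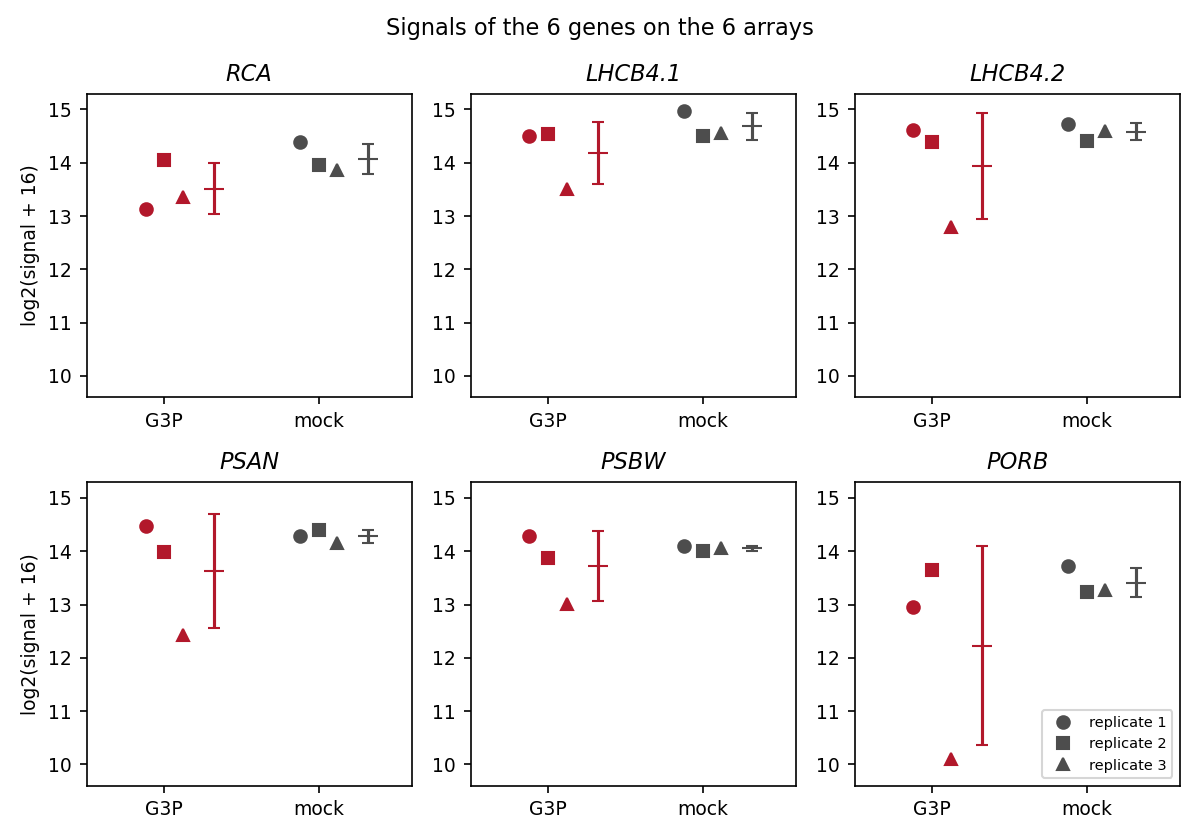
Each panel shows 1 gene, with log2(signal + 16) on the vertical axis and the G3P arrays left of the mock arrays; points are single arrays, shaped by replicate number, and bars are the mean ± SD of the group (n = 3). The 3 mock arrays of each gene lie within 0.52 of each other, whereas G3P replicate 3 lies at the bottom for all genes but RCA, as low as 10.10 for PORB.

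LHCB4.1 and LHCB4.2 encode CP29, a minor antenna protein that links the outer light-harvesting complexes to the photosystem II core. LHCB4.1 read 14.50, 14.55 and 13.51 on G3P replicates 1, 2 and 3, against 14.97, 14.51 and 14.57 on mock replicates 1, 2 and 3. G3P replicates 1 and 2 lay close to mock replicates 2 and 3, mock replicate 1 was the highest array, and G3P replicate 3 was 0.98 below any other. The difference was -0.50 ± 0.31 (SE; 95% interval -1.21 to 0.22), and -0.16 ± 0.20 without G3P replicate 3.

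LHCB4.2 read 14.62, 14.39 and 12.80 in G3P leaves, against 14.73, 14.41 and 14.59 in mock leaves. Its gap on G3P replicate 3 was wider, at 1.59, and the other 5 arrays were close together. The difference was -0.65 ± 0.44 (SE; interval -1.68 to 0.38), and -0.08 ± 0.18 without that array. The within-array difference between the probe sets of the paralogs, LHCB4.1 minus LHCB4.2, was 0.72 on G3P replicate 3 and lay between -0.12 and 0.24 on the other 5 arrays, so the pair did not move equally there. The third gene for this protein, LHCB4.3, had a much lower signal and another pattern, with 10.11, 9.29 and 9.02 in G3P leaves, against 9.66, 9.46 and 8.81 in mock leaves, and a difference of 0.16 ± 0.35 (0.39 without G3P replicate 3).

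PSBW encodes a small membrane subunit of photosystem II that stabilizes the dimer with its antenna. Its signals were 14.29, 13.88 and 13.01 in G3P leaves, against 14.09, 14.00 and 14.07 in mock leaves. The mock arrays spanned only 0.09, the tightest of the 6 genes, and the G3P arrays lay on both sides of them, replicate 1 above and replicates 2 and 3 below. The difference of -0.33 ± 0.32 (SE; interval -1.06 to 0.40) was 0.03 ± 0.19 without G3P replicate 3.

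PSAN encodes a lumenal subunit of photosystem I at the side where plastocyanin delivers electrons. It had 14.47, 13.98 and 12.43 in G3P leaves, against 14.29, 14.40 and 14.16 in mock leaves. As with PSBW, G3P replicate 1 was the highest of all 6 arrays, and G3P replicate 3 was the lowest, by 1.56. The difference was -0.65 ± 0.47 (SE; interval -1.75 to 0.44), and -0.05 ± 0.20 without G3P replicate 3.

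RCA encodes the ATP-driven chaperone that frees Rubisco from inhibitory sugar phosphates, and its pattern differed from the photosystem genes. Signals were 13.13, 14.06 and 13.36 in G3P leaves, against 14.38, 13.96 and 13.86 in mock leaves. G3P replicates 1 and 3 were both below every mock array and replicate 2 was within the mock range, so the lowest array was G3P replicate 1, on which PSAN and PSBW were at their highest. The difference of -0.55 ± 0.28 (SE; interval -1.20 to 0.10) was -0.47 ± 0.29 when G3P replicate 3 was left out. Leaving out replicate 1 gave -0.36 and leaving out replicate 2 gave -0.82. It therefore rested less on replicate 3 than those of the other 5 genes. On the linear scale the medians were 10471 in G3P leaves and 15872 in mock leaves, a ratio of 0.660, the lowest of the 6 genes. This G3P median was the value on G3P replicate 3 itself, between 8959 on replicate 1 and 17040 on replicate 2. For the other 5 genes the G3P median was a value on G3P replicate 1 or 2, so the ranking compares unlike arrays.

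PORB encodes a protochlorophyllide oxidoreductase, which uses light to reduce protochlorophyllide to chlorophyllide, a late step of chlorophyll synthesis. It read 12.95, 13.64 and 10.10 in G3P leaves, against 13.72, 13.24 and 13.28 in mock leaves. G3P replicate 2 was within the mock range, replicate 1 was slightly below it, and replicate 3 was 2.85 below the next array. In signal this was 1084 on G3P replicate 3, with 7898 and 12747 on G3P replicates 1 and 2, against 9650 to 13514 on the mock arrays. The difference was the largest of the 6 genes and the least precise, -1.18 ± 0.80 (SE; interval -3.03 to 0.66), and it was -0.12 ± 0.26 without that array. The ratio of group medians was 0.798 for PORB and 0.810 to 0.954 for the photosystem and antenna genes. It does not depend on how far G3P replicate 3 fell. With that array lowest, the G3P median of each of these genes was the lower of G3P replicates 1 and 2. The ratio is therefore not free of that array.

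**Figure D2:**
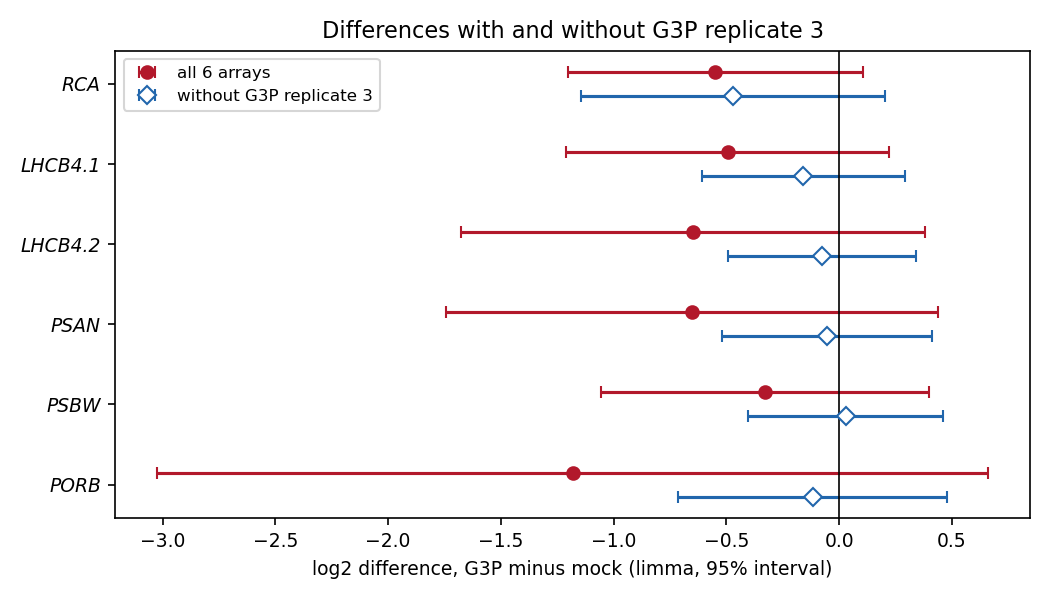
Points are log2 differences, G3P minus mock, and bars their 95% intervals from limma, for all 6 arrays (filled) and without G3P replicate 3 (open). Every interval includes 0, and without that array PORB stands at -0.12 in place of -1.18 while RCA stays near -0.5.

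How far the genes moved together depended on the same array. Over the 6 arrays the 15 pairs of genes correlated with a median r of 0.901, from 0.257 for RCA with PSBW to 0.982 for PSAN with PSBW. Over the 5 arrays without G3P replicate 3 the median r was 0.039, and 5 of the 15 were negative. RCA and PORB were then the closest pair (0.912), PSAN and PSBW had 0.768, the CP29 genes had 0.699, and RCA with PSBW had the lowest value (-0.692). These coefficients are descriptions over points that share arrays and plants.

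Across all 6 arrays the 95% interval reached beyond 1 log2 unit (a 2-fold change) for every one of the 6 genes. Without G3P replicate 3 it lay within 1 log2 unit in either direction for 5 of the 6, all but RCA, whose interval was -1.14 to 0.21. That array was singled out because it stood apart, and it gave the lowest value for those same 5 genes. Leaving it out therefore narrows their intervals, which do not allow for that choice and rest on G3P replicates 1 and 2. Spread was unequal between the groups, with an SD of 0.48 to 1.88 among G3P arrays and 0.05 to 0.28 among mock arrays. The test assumes 1 spread for both groups. At an unadjusted threshold of 0.05 in limma 0 of the 6 genes were lower, against 1.95% of all probe sets.

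Very bright probe sets as a class were low on G3P replicate 3, so the 6 genes are set beside them here. Among the 324 other probe sets at least as bright as PORB, the dimmest of the 6 by mean (12.82), 56.2% were lowest on that array. Their median difference between the groups was -0.11, with 67.3% negative (53.5% over all probe sets), and it was 0.0018 without G3P replicate 3. Their median deviation on that array from the mean of the other 5 arrays was -0.36, against -1.43 for the 6 genes. The deviations were -3.26 for PORB, -1.83 for PSAN, -1.75 for LHCB4.2, -1.10 for LHCB4.1, -1.05 for PSBW and -0.52 for RCA. Of the 324, 2 were as low as PORB, 14 as low as PSAN, and 122 as low as RCA, so RCA deviated as many bright probe sets did and PORB as few did. After quantile normalization, which gives all arrays one distribution, the deviations were -3.26 for PORB, -1.67 for PSAN, -1.57 for LHCB4.2, -0.84 for PSBW, -0.71 for LHCB4.1 and -0.24 for RCA.

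**Figure D3:**
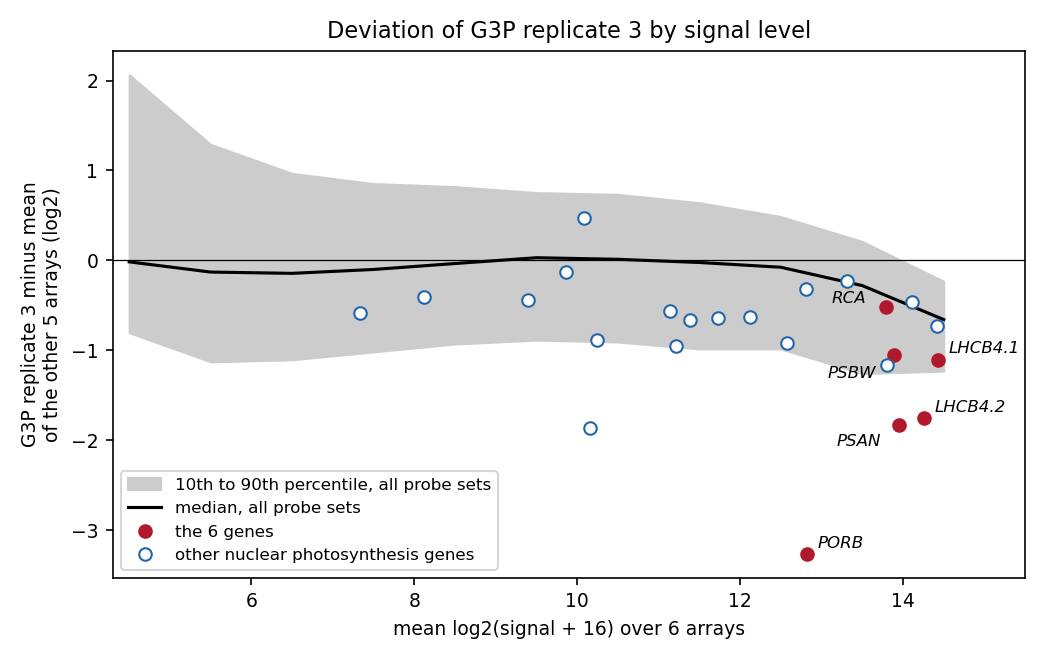
The horizontal axis is the mean log2(signal + 16) over the 6 arrays and the vertical axis the value on G3P replicate 3 minus the mean of the other 5 arrays. The line and band give the median and the 10th to 90th percentile of all probe sets per log2 unit of signal (at least 20 probe sets each), filled points the 6 genes and open points 18 other nuclear photosynthesis and chlorophyll genes. PORB, PSAN and LHCB4.2 lie below the band, and LHCB4.1, PSBW and RCA inside it.

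Of 124 nuclear genes listed for the photosystems, electron transport, the Calvin cycle and chlorophyll synthesis, 24 had a named probe set, 18 of them besides the 6 genes. Of these 18, 0 passed in either direction (limma, adjusted p = 0.912 or more), 14 had a negative and 4 a positive difference, and the median was -0.15. Without G3P replicate 3 the number of negative differences was 6 and the median 0.11. The 4 of the 18 that were at least as bright as PORB had negative differences both with all arrays (median -0.33) and without that array (median -0.15). That array was the lowest of the 6 for 13 of the 18. In the photosystems, PSBY, a small subunit of photosystem II, had -0.48 ± 0.32 (SE), with 12.84 on G3P replicate 3 and 13.85 to 14.30 elsewhere; without that array its difference was -0.12. PSAE-1, a stromal subunit of photosystem I near the ferredoxin docking site, had -0.41 ± 0.24, with 14.51, 14.33 and 13.81 in G3P leaves, against 14.89, 14.47 and 14.51 in mock leaves, and -0.21 without G3P replicate 3.

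**Figure D4:**
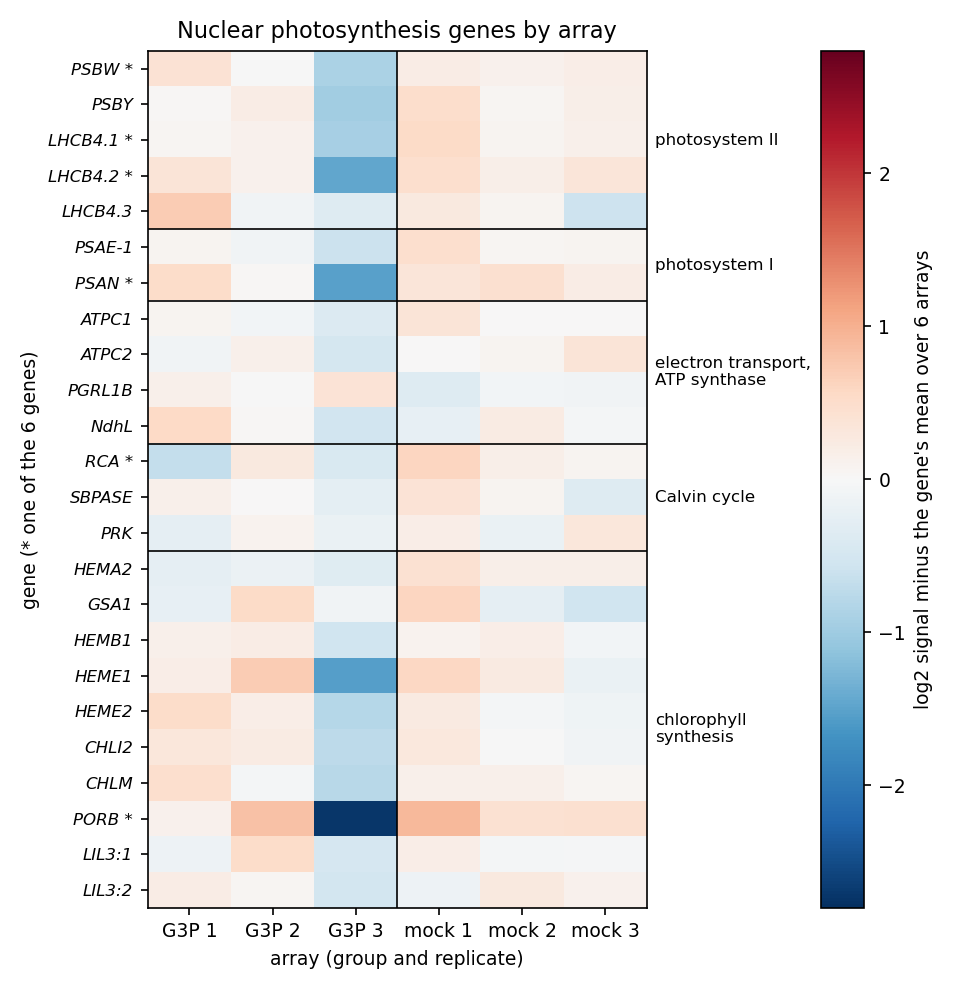
Rows are 24 nuclear genes grouped by process, the 6 genes marked with an asterisk, and columns the 6 arrays, G3P left of mock; colour is the log2 signal minus the gene's own mean over the 6 arrays. The G3P replicate 3 column is blue for most rows and darkest for PORB, and RCA is the one of the 6 with its lowest value on G3P replicate 1.

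In electron transport and ATP synthesis the 4 measured genes were split. PGRL1B, a thylakoid protein of cyclic electron flow, was the gene among the 18 with all G3P arrays above all mock arrays, at 10.23, 10.08 and 10.48 in G3P leaves, against 9.74 to 10.01 in mock leaves. Its difference was 0.35 ± 0.21 (SE), and 0.24 without G3P replicate 3, and 4.27% of all probe sets had groups that did not overlap and were higher in G3P leaves. The gamma subunit genes of the chloroplast ATP synthase, ATPC1 and ATPC2, had -0.26 ± 0.21 and -0.30 ± 0.27, and NdhL (also CRR23), a subunit of the NADH dehydrogenase-like complex, had 0.04 ± 0.29. Leaving out G3P replicate 3 gave -0.13 for both ATPC1 and ATPC2 and 0.31 for NdhL. In the Calvin cycle, the phosphoribulokinase gene PRK, whose enzyme makes the substrate of Rubisco, had -0.22 ± 0.21, and SBPASE, for sedoheptulose-bisphosphatase, had -0.06 ± 0.24. PRK had -0.17 and SBPASE 0.05 without G3P replicate 3. RCA had the most negative difference of the 3 measured genes of that process, with and without that array.

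Chlorophyll synthesis was the process with the most measured genes, 10 of 31 listed. Besides PORB, 8 of 9 differences were negative, with a median of -0.13, and 8 of 9 genes were lowest on G3P replicate 3. Without that array the median of the 9 was 0.15. HEMA2, a glutamyl-tRNA reductase gene that commits glutamate to tetrapyrroles, was the gene among the 18 with all G3P arrays below all mock arrays. It had 7.88, 7.96 and 7.78 in G3P leaves, against 8.56, 8.28 and 8.28 in mock leaves, a difference of -0.50 ± 0.22 (SE) that was -0.45 without G3P replicate 3, beside the 4.37% of all probe sets whose groups did not overlap in that direction. HEME1, for uroporphyrinogen decarboxylase, had 10.35, 10.88 and 8.61 in G3P leaves, against 10.73, 10.40 and 9.97 in mock leaves. Its difference was -0.42 ± 0.54, and 0.25 without G3P replicate 3. CHLM, the Mg-protoporphyrin methyltransferase gene, had -0.22 ± 0.31, and LIL3:2, a light-harvesting-like protein of chlorophyll synthesis, had -0.17 ± 0.25. Both were positive without G3P replicate 3, at 0.10 for CHLM and 0.05 for LIL3:2. In chlorophyll breakdown, 1 of 15 listed genes was measured, the chlorophyll b reductase gene NOL, with 0.26 ± 0.22, and 0.34 without G3P replicate 3.

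Of the factors for assembly, repair and photoprotection, 5 of 32 were measured, 0 passed, and 4 of 5 differences were negative (median -0.15, and 0.07 without G3P replicate 3). PSB27, a photosystem II repair factor, had 13.65, 13.51 and 12.34 in G3P leaves, against 13.63, 13.45 and 13.45 in mock leaves, and so shared the low value on G3P replicate 3. Its difference was -0.35 ± 0.34 (SE), and 0.07 without that array. HCF101, an iron-sulfur cluster factor needed for photosystem I, had -0.30 ± 0.29, PAM68 had 0.25 ± 0.23 and LPA1 had -0.15 ± 0.29; both of these act in photosystem II assembly. HCF101 had -0.14, PAM68 0.44 and LPA1 -0.14 without G3P replicate 3. In photorespiration the hydroxypyruvate reductase gene HPR was measured (1 of 19 listed). It had 13.35, 13.31 and 13.42 in G3P leaves, against 13.81, 13.67 and 13.57 in mock leaves, with no overlap (4.37% of all probe sets in that direction) and a difference of -0.32 ± 0.17, and -0.35 without G3P replicate 3. G3P replicate 3 was the highest of its G3P arrays, unlike the photosystem genes.

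The genes with the array pattern most like the mean of the 6 were sought among 4834 probe sets with a single gene and a mean of at least 8. Each gene was centred on its own mean, and Pearson's r was taken over the 6 arrays as a description. Because G3P replicate 3 dominates that mean (-1.32, against 0.13 and 0.23 on the other G3P arrays and 0.23 to 0.51 on the mock arrays), 252 probe sets (5.21%) exceeded 0.9. The 8 closest were AT4G10030 (r = 0.999), AT3G08030, AT4G16155 and AT5G62350 (0.997 each), CSLC5 (0.994), AT3G59110 (0.993), AT5G48900 and AT4G25260 (0.992 each). The first of them read 8.50, 8.57 and 7.29 in G3P leaves, against 8.80, 8.57 and 8.53 in mock leaves. Over the 5 arrays without G3P replicate 3, r was 0.986 for AT4G10030, 0.992 for AT4G16155 and 0.969 for AT5G62350, and 0.763 to 0.912 for the other 5. These 5 arrays were among the 6 by which the genes were chosen, so the values are no separate check. On them the mean of the 6 genes was highest on mock replicate 1 (0.51, against 0.13 to 0.23 on the rest). Between pairs of the 6 genes the median r there was 0.039. That is another measure than r with their mean, which was not computed for the 6 genes themselves. The 4 most opposed genes were AT1G15790, AT1G14130, AT3G19550 and AT5G46780, with r from -0.995 to -0.993. AT3G19550 was at 11.37 on G3P replicate 3 and 6.57 to 7.78 elsewhere.

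Of 48 listed markers of guard cells, epidermis and trichomes, vasculature, and root, flower or meristem, 3 had a named probe set. The others could not be looked up, so the cell makeup of the leaves could hardly be described. The root and endoplasmic reticulum body gene PYK10 had dim signals on a scale that starts at 4, with 5.82, 5.06 and 6.76 in G3P leaves, against 6.55, 4.62 and 5.94 in mock leaves. The guard cell factor FAMA (FMA in the annotation) averaged 8.22 ± 0.21 in G3P leaves and 8.18 ± 0.45 in mock leaves (SD, n = 3 each). The phloem sucrose exporter SWEET11 had 12.26, 12.17 and 13.63 in G3P leaves, against 12.25, 12.43 and 12.65 in mock leaves, and was thus highest on the array on which 5 of the 6 genes were lowest. PYK10 was highest there too, but by little and at dim signal (6.76, against 6.55 on mock replicate 1). FAMA was not: G3P replicate 3 was the lowest of its G3P arrays. The share of all probe sets that were highest on that array was not counted. The part of the cell makeup in the low values on that array was not tested.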

How the data were processed

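The authors deposited linear signal intensities, 1 for each array and probe set, from Affymetrix Expression Console 1.0 (per the submitters' processing notes). How signals were summarized and scaled, and how the 16129 probe sets were chosen, is not given in the sources used here. Genes were named through the platform annotation (8950 probe sets with 1 gene, 339 with several, 6840 with no entry and unnamed here), with current symbols from RefSeq (TAIR10.1) for 8911; no build is given for the array, so no coordinates are printed.

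G3P was compared with mock by limma 3.58.1 in R 4.3.3 on log2(signal + 16), with a variance trend, all 6 arrays and no covariates, adjusted over all probe sets (Benjamini-Hochberg) at 0.05. The Wilcoxon test of the study's design text cannot give an exact p under 0.1 with 3 against 3, so it was an alternative. The other alternatives were the replicate block, pseudocounts of 1 and 64, quantile normalization, median centring, no dim probe sets, no trend, array weights and each array left out. The fit was tried on simulated data with the same spread in both groups and no outlying array. The arrays here differ from that setting on both points, so the simulation does not cover them.

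The 6 genes and the 15 gene lists (321 entries, 71 measured) were chosen with earlier results of these data known. Named were the 6 genes, from each pathway list up to 4 others with the smallest limma p, all measured markers, and the 8 most and 4 least similar genes. A listed gene with several probe sets was represented by the brightest. Promoter and protein comparisons were not made. The number of arrays limits the precision.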

Additional observations from a re-analysis of the deposited data

How the results depend on the processing

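No probe set passed in limma under any of the 16 alternatives with a test across all probe sets (0 in each; 496 at an unadjusted threshold of 0.05 in the analysis as reported), and the exact rank-sum test gave p = 0.2 to 0.7 for the 6 genes. Of 102 repeats of the 6 differences, 100 kept the sign. The exceptions were PSBW without G3P replicate 3 (0.029) and, chosen after seeing the data, PSBW after quantile normalization without G3P replicate 3 (0.069). Part of the count of kept signs was fixed in advance. The replicate block, the removal of dim probe sets and the omitted trend left each of the 6 differences unchanged. Pseudocounts of 1 and 64 gave -1.19 and -1.16 for PORB, against -1.18 as reported. With single arrays left out the differences ran from -0.82 to -0.36 for RCA, -0.68 to -0.16 for LHCB4.1, -0.99 to -0.08 for LHCB4.2, -1.08 to -0.05 for PSAN, -0.61 to 0.03 for PSBW and -1.89 to -0.12 for PORB. Adjusted p-values of the 6 genes ranged from 0.652 to 0.9998 (limma). Array weights, which gave G3P replicate 3 the lowest weight (0.397), gave a median difference of -0.33 in place of -0.60, with -0.49 for PORB. Quantile normalization gave a median of -0.47. With a replicate block, 0 probe sets passed, 685 had an unadjusted limma p under 0.05, and the 6 genes had an adjusted p of 0.880 (limma); nothing in the sources says that numbers mark shared plants, and the deviations of same-numbered arrays correlated at 0.006, -0.102 and 0.314. Deviations of differently numbered arrays correlated at -0.368 to 0.451, a range that includes the values of the same-numbered arrays. The block changed no call. Without G3P replicate 3 the medians of some lists of other genes were positive. They were 0.15 for chlorophyll synthesis (9 genes), 0.05 for electron transport (4), 0.07 for assembly (5) and 0.08 for plastid genes (33). Photosystem II had 0.14 from 2 opposed genes, PSBY (-0.12) and LHCB4.3 (0.39). Other lists were negative, with -0.21 for photosystem I (1 gene), -0.06 for the Calvin cycle (2), -0.35 for photorespiration (1) and -0.39 for the clock (3). A list of 1 gene gives that gene's value only. The cause of the low values on G3P replicate 3 was not tested.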

Other observations

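The chloroplast genome encodes the partners of the nuclear subunits, and all 33 listed plastid genes of the photosystems, the cytochrome b6f complex, ATP synthase and Rubisco had a named probe set. Of these, 0 passed (limma), 19 differences were negative and 14 positive, and the median was -0.06, and 0.08 without G3P replicate 3. That array was the lowest for 16 of the 33. The smallest p-values were those of photosystem II genes psbK, psbI and psbN and of the ATP synthase gene atpE. The psbK signals were 12.16, 11.23 and 10.88 in G3P leaves, against 13.66, 13.09 and 13.24 in mock leaves. The difference was -1.91 ± 0.34 (SE; limma, adjusted p = 0.912), and -1.63 without G3P replicate 3. The psbI signals were 12.34, 11.39 and 11.24 in G3P leaves, against 12.78, 12.29 and 12.73 in mock leaves (difference -0.94 ± 0.32, SE). The psbN signals were dimmer, with 7.06, 5.56 and 6.59 in G3P leaves, against 7.70, 7.47 and 7.40 in mock leaves (-1.12 ± 0.40). Without G3P replicate 3 the differences were -0.73 for psbI and -1.22 for psbN. All 3 G3P arrays were below all 3 mock arrays for psbK, psbN and psbJ, 3 of the 33 genes, and 0 of the 33 had all G3P arrays above all mock arrays; over all probe sets these shares were 4.37% lower and 4.27% higher. The psbJ gene, of photosystem II, had -0.35 ± 0.21, and -0.17 without G3P replicate 3. The atpE gene had 14.58, 14.28 and 13.97 in G3P leaves, against 14.79, 14.64 and 14.57 in mock leaves (-0.39 ± 0.21, and -0.23 without G3P replicate 3). The gene atpA, for the alpha subunit of ATP synthase and chosen after its values were seen, had 13.91, 13.64 and 9.70 in G3P leaves, against 13.90, 13.74 and 13.61 in mock leaves, a lower value on G3P replicate 3 relative to its other arrays than that of PORB. Its difference was -1.33 ± 0.99, and 0.03 without that array.

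Photosynthesis genes are under light and clock control; 1 of 27 listed regulators and 3 of 23 listed clock genes were measured. TIC, a clock regulator, had 8.25, 9.47 and 7.80 in G3P leaves, against 10.07, 8.81 and 8.90 in mock leaves (-0.75 ± 0.50, SE). Its order of arrays was that of PORB. The share of all probe sets with that order was not counted, and G3P replicate 3 was the lowest array for 28% of them. A link of the 6 genes to the clock was not tested. Without G3P replicate 3 the TIC difference was -0.40, and without mock replicate 1 it was -0.35. The clock gene GI had 8.69, 9.93 and 6.91 in G3P leaves, against 10.14, 9.50 and 9.44 in mock leaves (-1.18 ± 0.67, and -0.39 without G3P replicate 3). FIO1 had -0.21 ± 0.30, with -0.09 without G3P replicate 3 and -0.03 without mock replicate 1. HYH, a bZIP factor of light signalling related to HY5, had 6.29, 6.31 and 7.54 in G3P leaves, against 4.41, 6.13 and 5.96 in mock leaves, with no overlap (4.27% of all probe sets in that direction) and a difference of 1.21 ± 0.57. Its signal is dim, with mock replicate 1 close to 4, where the scale starts; without G3P replicate 3 the difference was 0.80, and without mock replicate 1 it was 0.67. Of these 4 genes 0 passed (limma, adjusted p = 0.912, and 0.929 for FIO1).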
